A study of Homo sapiens with 6 samples.

Results

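The genes described here encode the ATPases and subunits of human chromatin remodelling complexes. They were chosen by symbol, with earlier results of these data known. All 48 were found among the 23368 gene symbols of the count table. They comprise 24 genes in SWI/SNF, 12 in NuRD, 5 in ISWI, 6 CHD enzymes outside NuRD, and INO80. RNA was sequenced from HCT116 cells, an established human colon cancer line, treated with an siRNA against ADNP (siADNP, 3 libraries) or with a control siRNA (siControl, 3 libraries). ADNP carries zinc fingers and a homeodomain, binds chromatin, and has been described in complexes with several of these remodellers, and the comparison asks which transcripts differ when it is depleted. Both groups are the same cell line. The labels number the replicates without saying whether each came from its own culture, so a p-value here reflects only how far these particular samples scatter, which may be technical. The siRNA sequences, the dose and the time after treatment are not given in the labels.

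Remodellers use ATP to slide, eject or exchange nucleosomes, and so set which stretches of DNA are open to transcription factors. SWI/SNF complexes exist as BAF, PBAF and non-canonical BAF, each built around one of the ATPases SMARCA2 (BRM) or SMARCA4 (BRG1), and their subunits are often mutated in cancer, colon cancer included. NuRD joins a CHD-family ATPase to histone deacetylases and to readers of methylated DNA and is mostly known for repression, while ISWI enzymes space nucleosomes in regular arrays.

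Reads assigned to genes ranged between 7396771 and 8726017 in the siADNP libraries and between 8282290 and 10265175 in the siControl libraries. ADNP stood at 46.7, 55.3 and 59.8 CPM, the gene's share of the reads in genes scaled by TMM to make libraries comparable, in the siADNP libraries, against 171, 155 and 167 CPM in the siControl libraries, so the knockdown matches the labels in all 6. Of 9 markers of colon epithelium, 8 were well enough covered to test, with a summed level of 3093 to 3310.35 CPM in the siADNP libraries and 3197 to 3268 CPM in the siControl libraries, while VIL1 was at 0 reads in all of them. Of the 8, CLDN4 was higher (log2 fold change 0.25) and KRT19 lower (-0.15) in siADNP cells. No marker of fibroblasts, blood cells or endothelium had enough reads to test, and DCN, LUM, HBB and CDH5 were at 0 reads. The fibroblast markers summed to 0.113 to 1.41 CPM in the siADNP libraries and 0.295 to 0.603 CPM in the siControl libraries, and no list of other cell types passed 1.91 CPM in any library. In such bulk samples fewer cells expressing a gene and less RNA per cell cannot be told apart.

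All 48 members had enough reads to test, 18 of them passed, and they split evenly, with 9 higher and 9 lower in siADNP cells. The threshold was an adjusted p under 0.05 in edgeR's quasi-likelihood test over 12489 genes, at which 28.3% of all tested genes passed, 14.6% higher and 13.7% lower. The members' 37.5% thus stood against a background of 28.3%, and their median level of 119 CPM against 30.7 CPM for all tested genes. In absolute terms the 18 had a median log2 fold change of 0.24, against 0.32 for all genes that passed, and none reached 1.5-fold. The median log2 fold change over all 48 was 0.0044, and that of all tested genes was -0.0013. In all 18 the siADNP and siControl libraries did not overlap. This is no separate support, since the test picked the 18 from the same libraries. The groups were also separate for 5 of the 30 members that did not pass. Of all 48 members, 12 thus lay wholly above and 11 wholly below the controls, next to 20.1% and 20.7% of all tested genes. In either direction this held for 40.8% of all tested genes. By role, 4 of the 12 ATPases were higher and 3 lower, and among the 36 other subunits 5 were higher and 6 lower.

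**Figure D1:**
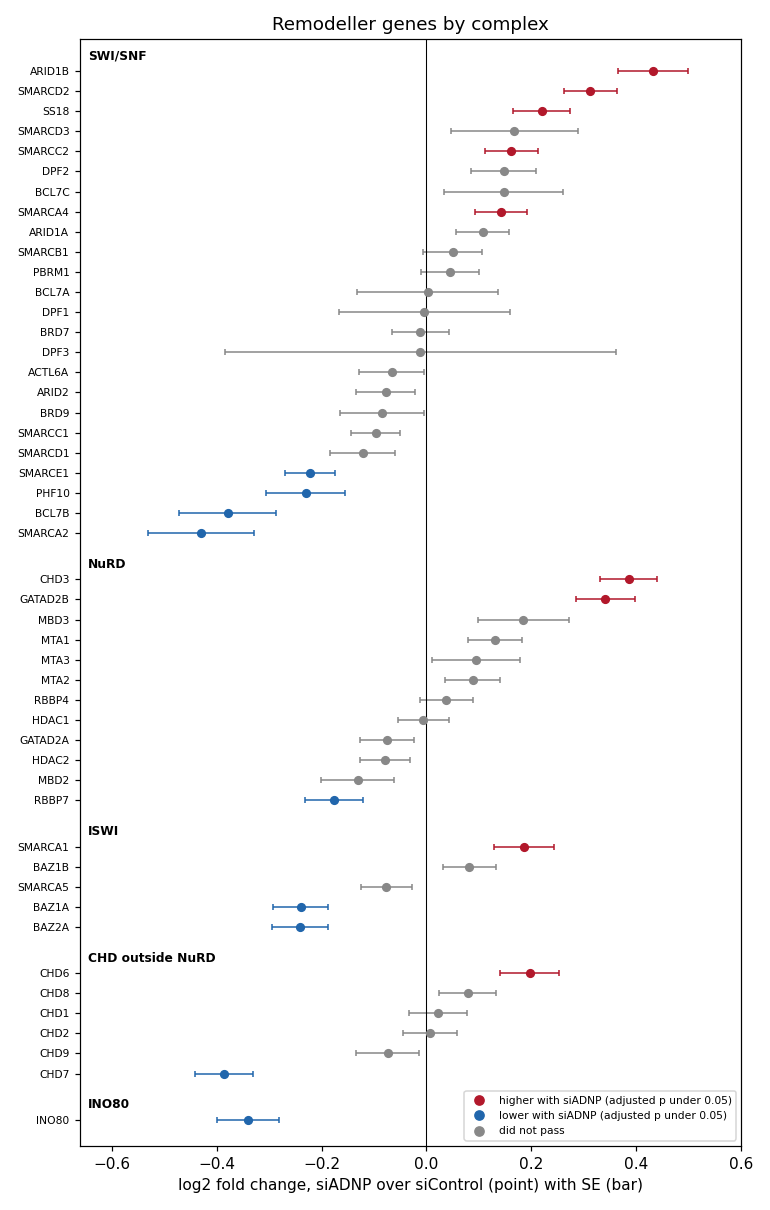
Log2 fold change of each of the 48 remodeller genes, siADNP over siControl, with its standard error as a bar, grouped by complex and coloured by the outcome of the edgeR test (adjusted p under 0.05). SWI/SNF holds both ends of the range, ARID1B at 0.43 and SMARCA2 at -0.43, and every complex with more than 1 member has genes on both sides of 0.

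Within SWI/SNF, 5 of 24 genes were higher, 4 were lower and 15 did not pass. The share that passed was 37.5%, against 28.3% of all genes, and the median over the 24 was -0.00098 on the log2 scale. The ATPases moved apart. SMARCA2, the less abundant of the pair, had 20.0, 17.2 and 19.8 CPM in the siADNP libraries, against 27.0, 23.6 and 26.2 CPM in the siControl libraries. Every siADNP library lay below every siControl library, and the log2 fold change was -0.43 ± 0.10 (SE; edgeR adjusted p = 0.00131), the largest fall among the members. SMARCA4 had 244, 237 and 248 CPM with siADNP, against 231, 218 and 211 CPM with siControl, a rise of 0.14 ± 0.05 on the log2 scale (edgeR adjusted p = 0.0288). The SMARCA4 call is a narrow one. It ended in DESeq2's Wald test (adjusted p = 0.0622), with no filter (0.0505 in edgeR), with an offset for transcript GC content (0.541 in edgeR, with a log2 fold change of 0.05), and in edgeR without siADNP replicate 1 (adjusted p = 0.0639), siADNP replicate 3 (0.0746), siControl replicate 2 (0.0912) or siControl replicate 3 (0.166).

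Among the core subunits SMARCD2 and SMARCC2 rose and SMARCE1, which BAF and PBAF share, fell. SMARCD2 had 182, 185 and 192 CPM in siADNP cells, against 150.3, 152 and 148 CPM in siControl cells (log2 fold change 0.31 ± 0.05, edgeR adjusted p = 9.67e-06), with groups far apart for their spread. Its paralogues SMARCD1 and SMARCD3 did not pass, at log2 fold changes of -0.12 ± 0.06 and 0.17 ± 0.12. SMARCC2, a scaffold that dimerises with SMARCC1, had 193, 187 and 182 CPM with siADNP and 170.3, 163 and 169.9 CPM with siControl (0.16 ± 0.05, edgeR adjusted p = 0.0140). It no longer passed with the GC offset (adjusted p = 0.0653, edgeR), or without siADNP replicate 1 (0.0604) or siControl replicate 2 (0.0832). SMARCC1 itself did not pass, at 390.3, 418 and 401 CPM in the siADNP libraries, against 427, 428 and 437 CPM in the siControl libraries, although these do not overlap (edgeR adjusted p = 0.121). SMARCE1, the HMG-box subunit, had 260.3, 269 and 274 CPM with siADNP, against 321, 306 and 310.4 CPM with siControl, a log2 fold change of -0.22 ± 0.05 (edgeR adjusted p = 0.000485), or -0.14 with the GC offset (edgeR adjusted p = 0.0240). The GENCODE annotation names 7 pseudogenes of SMARCE1, so part of its reads may be shared with them. SMARCB1, the subunit lost in rhabdoid tumours, did not pass, with a log2 fold change of 0.05 ± 0.06, and -0.04 with the GC offset.

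Among the subunits that tell BAF, PBAF and non-canonical BAF apart, ARID1B and SS18 rose, and PHF10, described below, fell. BCL7B, which also fell, is not one of these. ARID1B, a DNA-binding BAF subunit, showed the largest rise of all members, with 72.0, 75.1 and 70.5 CPM in siADNP cells and 57.4, 49.4 and 55.1 CPM in siControl cells (log2 fold change 0.43 ± 0.07, edgeR adjusted p = 5.25e-06). Its alternative ARID1A did not pass, at 256, 254 and 237 CPM with siADNP and 242, 222 and 230.2 CPM with siControl (0.11 ± 0.05). It passed with upper-quartile scaling (edgeR adjusted p = 0.0454) and without siADNP replicate 3 (0.0465), but with the GC offset its log2 fold change was 0.04 (adjusted p = 0.613, edgeR). SS18, shared by BAF and non-canonical BAF and known from the fusion of synovial sarcoma, had 189, 174 and 176 CPM with siADNP, against 162, 158 and 143 CPM with siControl (0.22 ± 0.05, edgeR adjusted p = 0.00207). BCL7B, a small subunit of the ATPase module, fell to 23.4, 21.2 and 22.4 CPM in the siADNP libraries, against 28.7, 27.5 and 30.9 CPM in the siControl libraries (-0.38 ± 0.09, edgeR adjusted p = 0.00196), while BCL7A and BCL7C did not pass (0.0021 ± 0.13 and 0.15 ± 0.11).

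PHF10 was the only PBAF subunit of the 4 listed to pass, with 41.7, 43.9 and 50.2 CPM in the siADNP libraries, against 57.1, 51.4 and 50.5 CPM in the siControl libraries (-0.23 ± 0.08, edgeR adjusted p = 0.0195). The groups are only just separate, since the highest siADNP library nearly meets the lowest siControl library. The call ended in DESeq2 (adjusted p = 0.0948), with the GC offset (0.168, edgeR), and in edgeR without siADNP replicate 1 (adjusted p = 0.117), siADNP replicate 2 (0.0710) or siControl replicate 1 (0.139). C6orf120, whose exons overlap those of PHF10 on the other strand, was lower too, with 48.6 ± 4.26 CPM in siADNP cells and 68.1 ± 6.74 CPM in siControl cells (SD, n = 3 each; edgeR adjusted p = 3.51e-06), and whether the counting used strand is not given in the labels. The other PBAF subunits, ARID2, PBRM1 and BRD7, had log2 fold changes of -0.08 ± 0.06, 0.04 ± 0.06 and -0.01 ± 0.05, and BRD9 of non-canonical BAF had -0.09 ± 0.08. The actin-related ACTL6A had -0.07 ± 0.06. Of the PHD-finger subunits, DPF2 came nearest to the threshold among the SWI/SNF genes that did not pass, with 87.1, 83.6 and 83.9 CPM in siADNP cells and 82.2, 75.3 and 72.2 CPM in siControl cells, which do not overlap (edgeR adjusted p = 0.0699). It passed with upper-quartile scaling (adjusted p = 0.0333, edgeR), with library totals (0.0496) and without siControl replicate 1 (0.0355). DPF1 and DPF3, which are known from neurons and muscle, were the most weakly covered, at 7.96 ± 1.37 and 1.37 ± 0.501 CPM in siADNP cells and 7.91 ± 0.775 and 1.38 ± 0.415 CPM in siControl cells (SD, n = 3 each). With a standard error of 0.37 on the log2 scale, a change in DPF3 of the size seen in SMARCA2 was not detectable at this depth.

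In NuRD, 2 of 12 genes were higher, 1 was lower and 9 did not pass. The 25% that passed stood against 28.3% of all genes, and the median log2 fold change was 0.06. CHD4, another NuRD ATPase, is neither among the members nor on the further lists, so the NuRD counts and sums leave it out. CHD3, the ATPase of the complex among the members, was at 130.4, 132 and 124 CPM in the siADNP libraries, against 99.8, 99.2 and 96.8 CPM in the siControl libraries. This was a log2 fold change of 0.39 ± 0.05 with the smallest adjusted p of all members (edgeR, 9.45e-07), and the control libraries lay within a few CPM of each other. GATAD2B, a p66 subunit that links the ATPase to the deacetylase part, had 106, 105 and 102 CPM with siADNP and 82.3, 82.0 and 83.4 CPM with siControl (0.34 ± 0.06, edgeR adjusted p = 1.53e-05). Its alternative GATAD2A lay on the other side of 0 and did not pass, at 190.5, 195 and 188 CPM with siADNP and 195, 214 and 196 CPM with siControl (-0.08 ± 0.05).

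RBBP7, a histone-binding WD40 protein that NuRD shares with other complexes, fell to 116, 119 and 116 CPM in the siADNP libraries, against 129.9, 141 and 125 CPM in the siControl libraries (-0.18 ± 0.06, edgeR adjusted p = 0.0147). With the GC offset it no longer passed (adjusted p = 0.132, edgeR), nor did it without siControl replicate 2 (0.156), the highest of its group. RBBP4, its close relative, had 204, 212 and 199 CPM with siADNP and 201, 190.0 and 208 CPM with siControl, and the groups overlap (0.04 ± 0.05). GENCODE names 6 pseudogenes of RBBP4 that may share its reads. It also names 2 of HDAC1, 5 of BRD7 and 2 of BRD9, with the same limit. Neither histone deacetylase passed. HDAC1 had 198, 201 and 207 CPM in siADNP cells and 198, 203 and 207 CPM in siControl cells (-0.0058 ± 0.05), and HDAC2 had 319, 338 and 351 CPM in siADNP cells and 361, 359 and 345 CPM in siControl cells (-0.08 ± 0.05). For both genes the libraries of the groups overlap.

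The MTA scaffolds, which hold the deacetylases in the complex, all had positive log2 fold changes that did not pass. MTA1 missed the threshold most narrowly, with 175, 186 and 191 CPM in the siADNP libraries, against 172, 167 and 167 CPM in the siControl libraries (0.13 ± 0.05, edgeR adjusted p = 0.0517). It passed with upper-quartile scaling (edgeR adjusted p = 0.0199), with library totals (0.0338), with an offset for transcript length (0.0338) and without siADNP replicate 1 (0.0249), but with the GC offset its log2 fold change was 0.03 (adjusted p = 0.686, edgeR). MTA2 and MTA3 had 0.09 ± 0.05 and 0.09 ± 0.08. MBD2, which binds methylated CpG sites, had 68.6, 74.2 and 64.5 CPM with siADNP and 71.0, 72.6 and 84.5 CPM with siControl (-0.13 ± 0.07, or -0.05 without siControl replicate 3, the highest). MBD3, which replaces it in other NuRD complexes, had 31.3, 30.9 and 29.6 CPM with siADNP and 28.3, 25.3 and 27.5 CPM with siControl (0.18 ± 0.09). The MBD3 libraries do not overlap between the groups, but neither gene passed (edgeR adjusted p = 0.155 for MBD2 and 0.112 for MBD3).

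Of the 5 ISWI genes 1 was higher and 2 were lower, a share of 60% against the 28.3% of all genes. SMARCA1, the ATPase SNF2L, rose to 106, 102 and 105 CPM in siADNP cells, against 87.3, 95.1 and 92.3 CPM in siControl cells (0.19 ± 0.06, edgeR adjusted p = 0.0126). The call ended in DESeq2 (adjusted p = 0.0550) and in edgeR without siControl replicate 1 (adjusted p = 0.0921), while its log2 fold change was 0.26 with the GC offset. SMARCA5, the ATPase SNF2H found in most ISWI complexes, had 267, 293 and 291 CPM with siADNP and 300.1, 301 and 296 CPM with siControl. The groups are separate, but the difference did not pass (-0.08 ± 0.05, edgeR adjusted p = 0.250).

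The ISWI partners that fell are bromodomain proteins that pair with SMARCA5. BAZ1A, of the nucleosome-spacing ACF and CHRAC complexes, had 154, 169 and 156 CPM in the siADNP libraries, against 197, 186 and 183 CPM in the siControl libraries (-0.24 ± 0.05, edgeR adjusted p = 0.000586). BAZ2A, of the nucleolar complex that silences ribosomal RNA genes, had 197, 230.0 and 199 CPM with siADNP and 249, 242 and 249.8 CPM with siControl (-0.24 ± 0.05, edgeR adjusted p = 0.000714), where siADNP replicate 2 lay closest to the controls. BAZ1B, the remaining partner listed, did not pass, at 299, 311 and 295 CPM with siADNP and 304, 266 and 286 CPM with siControl (0.08 ± 0.05).

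Outside NuRD, 1 of 6 CHD enzymes was higher, 1 was lower and 4 did not pass. The 33.3% that passed stood against 28.3% of all genes. CHD7, the enzyme mutated in CHARGE syndrome, fell to 129, 134 and 117 CPM in siADNP cells, against 169.8, 157 and 170.5 CPM in siControl cells. Its log2 fold change was -0.39 ± 0.06 (edgeR adjusted p = 1.44e-06), and the highest siADNP library lay well below the lowest siControl library. CHD6, of the same subfamily, had 107, 113 and 105 CPM with siADNP and 97.0, 94.5 and 92.7 CPM with siControl (0.20 ± 0.06, edgeR adjusted p = 0.00730). The remaining members of that subfamily, CHD8, a gene of autism known to restrain beta-catenin, and CHD9, did not pass. CHD8 had 212, 218 and 192 CPM with siADNP and 207, 182 and 201 CPM with siControl (0.08 ± 0.05), and CHD9 had a log2 fold change of -0.07 ± 0.06. CHD1 and CHD2, which travel with elongating polymerase, did not pass, at 0.02 ± 0.06 and 0.0067 ± 0.05.

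INO80, the ATPase that moves nucleosomes and works on the histone variant H2A.Z, fell to 90.2, 96.4 and 87.6 CPM in the siADNP libraries, against 120.3, 107 and 120.4 CPM in the siControl libraries. The groups are separate, with a log2 fold change of -0.34 ± 0.06 (edgeR adjusted p = 3.18e-05).

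**Figure D2:**
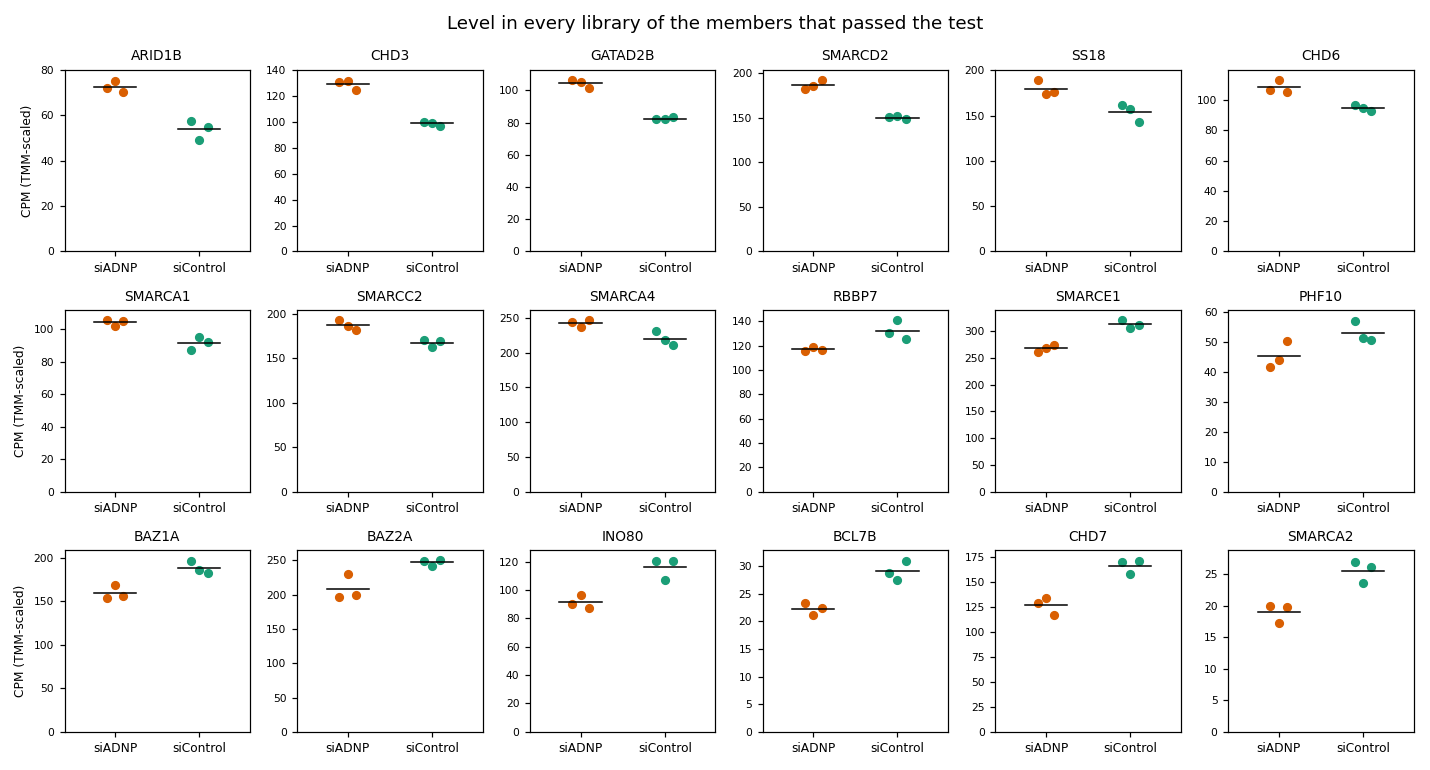
Level in CPM (vertical axis, from 0) in each library for the 18 members that passed the test, ordered from the largest rise (ARID1B) to the largest fall (SMARCA2), siADNP left and siControl right, with the group mean as a line. No panel has an overlap between the groups, which is no separate support, since the test picked these genes from the same libraries. Of all tested genes, 40.8% had no overlap. In PHF10 the highest siADNP library (50.2 CPM) nearly meets the lowest siControl library (50.5 CPM).

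Of the 18 calls, 13 held in all 16 alternatives run, which were other scalings, filters and tests, offsets for GC content and length, the replicate block, and leaving out each library. The 5 that did not, each with its values above, were SMARCA4, SMARCC2, PHF10, RBBP7 and SMARCA1.

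Ratios of paralogues reuse the same counts, but a ratio within a library does not depend on how libraries are scaled. For 10 pairs the log2 ratio of the counts was compared between groups, with 0.5 added to each count. In 7 pairs the siADNP libraries lay wholly on one side of the siControl libraries. The pairs were chosen with earlier results known, and the share of all gene pairs that would do so was not computed. The exact two-sided permutation test cannot go below p = 0.1 with 3 libraries against 3, so no pair could pass, and the 7 stood at that smallest p (0.143 after Benjamini-Hochberg adjustment over the pairs). All of the 7 but MBD2 over MBD3 hold a member that passed alone, so their separation in part repeats those calls.

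The ratio that moved furthest was that of the SWI/SNF ATPases. The log2 ratio of SMARCA2 over SMARCA4 was -3.60, -3.78 and -3.64 in the siADNP libraries, against -3.09, -3.21 and -3.01 in the siControl libraries, a difference of -0.57. Per length of the longest transcript, SMARCA2 made up 6.03% ± 0.357 of the reads of the pair with siADNP and 8.71% ± 0.553 with siControl (SD, n = 3 each). For ARID1B over ARID1A the log2 ratio was -1.83, -1.76 and -1.75 with siADNP and -2.08, -2.17 and -2.06 with siControl, a difference of 0.32. These subunits exclude each other within a complex, and ARID1B made up 18.8% ± 0.448 of the pair per length in siADNP cells and 15.6% ± 0.524 in siControl cells. SMARCC2 over SMARCC1 differed by 0.26 on the log2 scale, with a share per length of 41.0% ± 1.34 with siADNP and 36.7% ± 0.544 with siControl.

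In NuRD the p66 subunits shifted most. GATAD2B over GATAD2A was -0.84, -0.89 and -0.89 on the log2 scale in the siADNP libraries, against -1.24, -1.38 and -1.23 in the siControl libraries, a difference of 0.41 that combines a rise in one with a lower value in the other. Per length GATAD2B made up 29.7% ± 0.403 with siADNP and 24.1% ± 1.07 with siControl. MBD2 over MBD3, members of which neither passed alone, was 1.13, 1.26 and 1.12 with siADNP and 1.33, 1.52 and 1.62 with siControl, a difference of -0.32. RBBP7 over RBBP4 differed by -0.21, or by -0.13 without siControl replicate 2, and the ISWI ATPases, SMARCA1 over SMARCA5, by 0.27. The groups overlapped for HDAC2 over HDAC1 (-0.07), MTA1 over MTA2 (0.04) and CHD2 over CHD1 (-0.01).

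**Figure D3:**
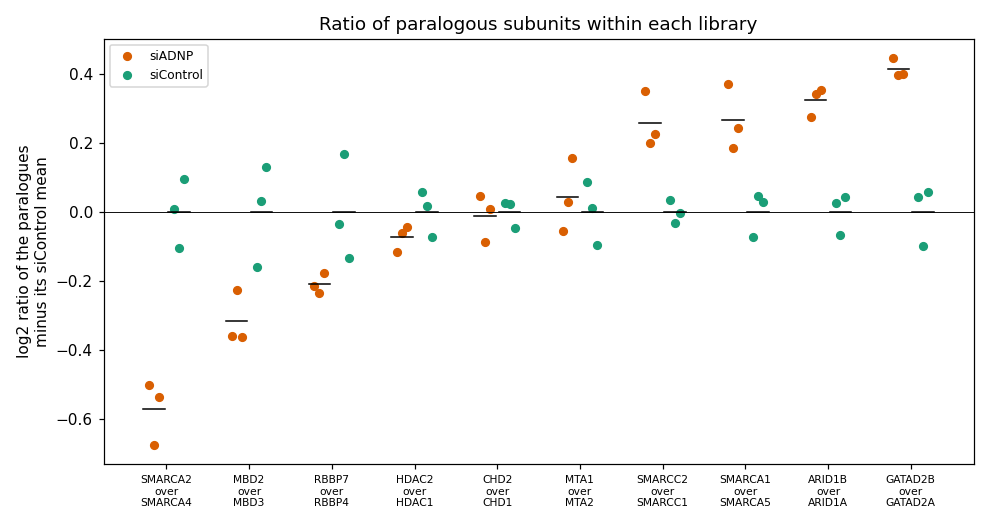
Log2 ratio of the counts of 2 paralogous subunits in each library, minus the mean of the siControl libraries (vertical axis), for 10 pairs, siADNP left and siControl right in each pair, with group means as lines. The siADNP mean is lowest for SMARCA2 over SMARCA4 (-0.57) and highest for GATAD2B over GATAD2A (0.41). The groups are separate in 7 of 10 pairs, a share that was not computed for all gene pairs.

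Reads of close paralogues can be confused where their sequences are identical, so the coding sequences were compared. In none of the 10 pairs did the longest coding sequences in GENCODE 29 share a run of 50 bases, and the longest identical run was 32 bases, in SMARCA1 and SMARCA5. The runs of 3 pairs are shown, because values of near-identical copies would otherwise be uncertain. Each is read on the sense strand, from coding base 1273 of SMARCA2 (chromosome 9) and 1345 of SMARCA4 (chromosome 19), 283 of SMARCA1 (chromosome X) and 274 of SMARCA5 (chromosome 4), and 850 of RBBP7 (chromosome X) and 721 of RBBP4 (chromosome 1), counted from the start codon, with the longest identical run in capitals and 15 bases on either side.
SMARCA2: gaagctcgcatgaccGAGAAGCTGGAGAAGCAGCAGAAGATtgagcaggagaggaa
SMARCA4: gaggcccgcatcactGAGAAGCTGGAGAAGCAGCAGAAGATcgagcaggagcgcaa
SMARCA1: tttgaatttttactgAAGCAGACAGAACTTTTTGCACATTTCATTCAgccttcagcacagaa
SMARCA5: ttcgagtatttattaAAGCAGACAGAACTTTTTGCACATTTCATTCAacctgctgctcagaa
RBBP7: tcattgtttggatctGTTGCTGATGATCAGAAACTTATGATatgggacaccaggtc
RBBP4: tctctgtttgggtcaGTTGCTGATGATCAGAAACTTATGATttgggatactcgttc
The paired lines differ at more than 1 base on each side of the run. Untranslated regions were not compared, and the read length is not given in the labels.

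Transcript GC content moved with the direction of the calls, as it did over all genes. Members that rose had a median GC content of 53.7% in their longest transcript, those that did not pass 48.97% and those that fell 42.9%, next to 54.0% for all genes that rose, 48.6% for those that did not pass and 43.0% for those that fell. Exceptions stood on both sides. SMARCA1 and SS18 rose with a GC content of 39.5% and 42.5%, and BCL7B fell with 59.1%. With an offset fitted per library on GC content, 14 of the 18 calls held in the same direction (edgeR adjusted p under 0.05), 7 rises and 7 falls, and SMARCA4, SMARCC2, PHF10 and RBBP7 no longer passed. SMARCD1 passed only there, as a fall, with a log2 fold change of -0.16 (edgeR adjusted p = 0.0459). The ATPase pair SMARCA2 and SMARCA4 had transcript GC contents of 42.9% and 61.4% and log2 fold changes of -0.37 and 0.05 under the offset. GATAD2B and GATAD2A had 47.97% and 55.3%, with 0.35 and -0.12 under the offset. Of the members that did not pass, MTA1 had 0.13 without the offset and 0.03 with it, MBD3 0.18 and 0.08, and ARID1A 0.11 and 0.04. MBD2 and MBD3 had GC contents of 45.8% and 62.5%, and the difference in their log2 ratio, -0.32 in the counts, was -0.18 as the difference of the log2 fold changes under the offset. For SMARCA2 over SMARCA4 it was -0.42. The other pairs whose groups did not overlap had 0.20 (SMARCC2 over SMARCC1), 0.36 (ARID1B over ARID1A), 0.26 (SMARCA1 over SMARCA5), 0.48 (GATAD2B over GATAD2A) and -0.22 (RBBP7 over RBBP4). The offset rests on the longest transcript, and the coding sequence alone has other GC contents. These were 59.2% and 65.4% for MBD2 and MBD3, and 51.4% and 61.0% for SMARCA2 and SMARCA4. For GATAD2B and GATAD2A they were 51.0% and 61.8%, further apart than in the transcripts. An offset on coding GC content was not tested.

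**Figure D4:**
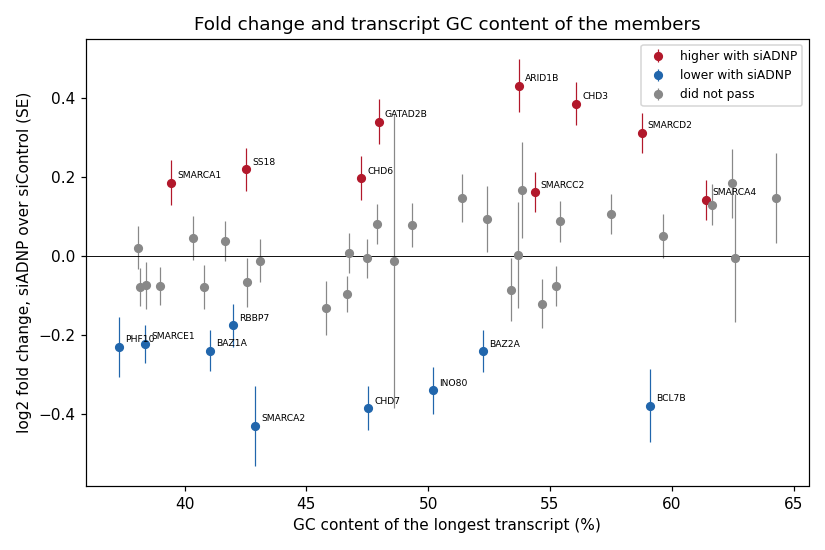
Log2 fold change, siADNP over siControl, with its standard error (vertical axis) against the GC content of the longest transcript in percent (horizontal axis) for the 48 members, coloured by the outcome of the edgeR test. Of the 9 genes that rose, 5 have a GC content over 50%, and of the 9 that fell, 3.

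Neighbouring genes whose exons overlap a member's in the annotation, and which the count table lists, were found for 14 members, 4 of which had passed. MYL6, on the strand opposite SMARCC2, had a log2 fold change of 0.03 ± 0.05 (SE), TXLNG opposite RBBP7 had 0.0087 ± 0.06, and RBMS2 opposite BAZ2A had -0.15 ± 0.08, and none of these passed (edgeR adjusted p = 0.755, 0.929 and 0.162). The fourth is C6orf120 opposite PHF10, described above. Opposite BRD7, a member that did not pass, ADCY7 rose with 0.39 ± 0.10 (edgeR adjusted p = 0.00416).

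Among further genes of the same or related complexes, those of SWI/SNF and NuRD that passed only rose. On the other lists, genes that passed moved in both directions. Of 3 testable SWI/SNF subunits outside the 48, 1 passed, a share of 33.3% beside the 28.3% of all genes. This was SS18L1, the paralogue of SS18, which rose. It had 19.3, 21.9 and 20.2 CPM in siADNP cells and 17.4, 15.8 and 16.0 CPM in siControl cells (0.32 ± 0.11, edgeR adjusted p = 0.0224). The SS18L1 call ended in DESeq2 (adjusted p = 0.123) and in edgeR without siADNP replicate 2 (adjusted p = 0.110), siControl replicate 2 (0.0809) or siControl replicate 3 (0.0674), and ACTB and GLTSCR1 did not pass. Of 6 NuRD partners, 2 rose and none fell, a share of 33.3% beside the 28.3% of all genes. Those that rose were the histone demethylase KDM1A with 0.21 ± 0.05 (edgeR adjusted p = 0.00222) and CDK2AP2 with 0.32 ± 0.10 (edgeR adjusted p = 0.0110). CDK2AP2 did not pass in DESeq2 (adjusted p = 0.0751), with the GC offset (0.120, edgeR) or without siADNP replicate 2 (0.0579).

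Among 7 testable ISWI partners, 2 rose and 3 fell, a share of 71.4% beside the 28.3% of all genes. RSF1, a partner of SMARCA5, rose with 120.5, 115 and 117 CPM in the siADNP libraries, against 92.5, 105 and 96.0 CPM in the siControl libraries (0.27 ± 0.06, edgeR adjusted p = 0.000512). BPTF, the large subunit of NURF, rose with 0.18 ± 0.05 (edgeR adjusted p = 0.00852), although its groups overlap and it did not pass without siADNP replicate 1 (adjusted p = 0.0584) or siControl replicate 2 (0.0776). POLE3, a histone-fold subunit of CHRAC, fell with -0.23 ± 0.06 (edgeR adjusted p = 0.00485).

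In the INO80, SRCAP and TIP60 complexes, 4 of 28 tested genes rose, 4 fell and 20 did not pass, a share of 28.6% beside the 28.3% of all genes. The AAA+ ATPase RUVBL2 rose with 241, 238 and 257 CPM in siADNP cells and 208, 201 and 194 CPM in siControl cells (0.28 ± 0.05, edgeR adjusted p = 3.58e-05). KAT5, the acetyltransferase TIP60, rose with 0.38 ± 0.07 (edgeR adjusted p = 0.000108), and MORF4L2 fell with -0.22 ± 0.05 (edgeR adjusted p = 0.000706). Of 14 other SNF2-family ATPases, 3 rose and 4 fell, a share of 50% beside the 28.3% of all genes. SMARCAL1, which remodels stalled replication forks, had 38.7, 38.1 and 43.5 CPM with siADNP and 54.1, 49.7 and 51.6 CPM with siControl (-0.37 ± 0.07, edgeR adjusted p = 0.000199). ATRX, a heterochromatin remodeller, rose with 0.22 ± 0.05 (edgeR adjusted p = 0.00174), and BTAF1, which removes TBP from DNA, fell with -0.19 ± 0.05 (edgeR adjusted p = 0.00471), but not with the GC offset (adjusted p = 0.0724, edgeR).

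Levels of different members were compared per kilobase of the longest annotated transcript (RPKM), which understates genes that mostly use a shorter one. On that scale the members spanned 84.0 RPKM for HDAC1 and 0.304 RPKM for DPF3, as means over the 6 libraries, and 36 of 48 lay above 10 RPKM. Among the ATPases SMARCA4 was highest, at 41.9 ± 0.939 RPKM in siADNP cells and 38.0 ± 1.77 RPKM in siControl cells (SD, n = 3 each), next to SMARCA5 at 35.8 ± 1.81 RPKM in siADNP cells and 37.7 ± 0.333 RPKM in siControl cells. In siADNP cells they were apart by more than their spread, and in siControl cells they were not. SMARCA1, the other ISWI ATPase, was at 24.3 ± 0.477 RPKM in siADNP cells and 21.3 ± 0.919 RPKM in siControl cells, and SMARCA2 was the lowest of the ATPases at 2.69 ± 0.221 RPKM in siADNP cells and 3.62 ± 0.251 RPKM in siControl cells. Summed over their members, SWI/SNF took 2681 to 2729.85 CPM in the siADNP libraries and 2625 to 2719.89 CPM in the siControl libraries, and NuRD took 1751 to 1808 CPM with siADNP and 1727 to 1750.2 CPM with siControl. The SWI/SNF sums overlap between the groups, and those of NuRD barely lie apart.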

How the data were processed

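RNA of 6 HCT116 libraries was measured as read counts per gene. Per the submitters' processing notes the authors used STAR, HTSeq and DESeq2 with hg19. No source used here gives the annotation, strand setting or read length. The deposited table holds whole-number counts per gene symbol, and a second deposited table holds normalized values on a log2-like scale, used only as an alternative. Library totals left out the lines naming no gene, which held 53.5 to 55.7% (no feature), 17.4 to 17.9% (not unique) and 0.455 to 0.500% (ambiguous) of the reads. The no-feature share was 54.4 to 55.7% in the siADNP libraries and 53.5 to 54.3% in the siControl libraries. The share in genes was 26.4 to 27.2% with siADNP and 27.7 to 28.3% with siControl. The groups do not overlap in either share, and whether this bears on the fold changes was not tested.

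The main test was edgeR 4.0.16's quasi-likelihood test (R 4.3.3) after TMM scaling and filterByExpr (minimum count 10), siADNP over siControl, with Benjamini-Hochberg adjustment over all 12489 tested genes at 0.05. Alternatives were DESeq2 1.42.0, upper-quartile scaling, library totals, other filters, limma 3.58.1 on the deposited log2-like values, offsets for GC content and length, the replicate block, and each library left out. Ratios used SciPy 1.17.1, and figures matplotlib 3.10.9. The scripts were tested on simulated data. GC content, lengths and coding sequences came from GENCODE 29 (GRCh38), matched by symbol, for 96.9% of tested genes and 48 of 48 members. Standard errors are of log2 fold changes. Libraries of 1 group differed by more than sampling noise (chi-square per degree of freedom of at least 1.80), so none was counted as a duplicate. Intervals are not given for CPM, and their precision is the spread over 3 libraries.

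The members, lists and pairs were chosen with earlier results of these data known. All 48 members are named, with library values for those that passed, the nearest to passing in each complex and the paralogue pairs, and from each further list up to 3 genes that passed, with the smallest p. GLTSCR1L, BICRA, BICRAL and MRGBP are not analysed here.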

Additional observations from a re-analysis of the deposited data

How the results depend on the processing

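DESeq2 called 2185 of 12146 genes (1106 higher, 1079 lower), against 3538 of 12489 in edgeR, and 15 of the 48 members, with no adjusted p for 1 member. Leaving out 1 library gave 2808 to 3062 called genes, 1470 to 1655 of them higher and 1307 to 1508 lower. Members called numbered 14 to 21 over all alternatives. On the deposited log2-like values, which compress differences at low counts, SMARCA2 was -0.22, BCL7B -0.20 and PHF10 -0.15 in limma, all still lower. Log2 fold changes that crossed 0 were all of members that did not pass. HDAC2 was 0.0039 with the GC offset and 0.0032 with the GC offset and replicate block, and SMARCA5 was 0.0026 and 0.0017. HDAC1 was 0.019 with upper-quartile scaling, 0.0066 with library totals, 0.0095 with the GC offset and 0.0095 with the block added, and -0.0233 to 0.0103 with 1 library left out. CHD2 was -0.0017 with no filter and -0.0201 to 0.0513 with 1 library left out, and CHD1 was -0.0348 to 0.0754. With the GC offset, and then with the block added, SMARCB1 was -0.035 and -0.036, BCL7A -0.031 and -0.032, BRD7 0.045 and 0.045, and CHD9 0.0075 and 0.0057. With upper-quartile scaling and then library totals, DPF1 was 0.021 and 0.0091, DPF3 0.012 and 0.0012, and BRD7 0.013 and 0.0014. BCL7A was -0.0063 with no filter and -0.00088 in limma, and DPF1 was 0.00023 in DESeq2 and 0.00052 in limma. With 1 library left out, BCL7A was -0.141 to 0.0899, DPF1 -0.150 to 0.0964, DPF3 -0.318 to 0.206, PBRM1 -0.0031 to 0.102 and CHD9 -0.116 to 0.0024. With 1 library left out, the log2 ratio difference of MTA1 over MTA2 was -0.0142 to 0.0924 and that of CHD2 over CHD1 -0.0394 to 0.0270. Under the GC offset, an alternative for the ratios chosen after seeing the data, the difference was -0.42 for SMARCA2 over SMARCA4, -0.0056 for HDAC2 over HDAC1 and -0.0054 for MTA1 over MTA2. The cause was not tested.

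Same-numbered libraries of the groups showed no sign of pairing, which 3 libraries a group cannot exclude. The correlations of their deviations from the group means were 0.0238, -0.0352 and -0.0290, next to -0.0269 to 0.0581 for the other combinations. With the replicate block edgeR called 3236 genes and the same 18 members. In the block fit with the GC offset it called 2923 genes and 14 members. For the ratios, a sign-flip test over the pairs cannot go below an exact p of 0.25. With 3 libraries a group, members at low counts such as DPF3 carry standard errors too wide for changes of the size seen elsewhere.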
